A study of Mus musculus with 12 samples.

Results

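The comparison described here is the interaction of genotype and mould exposure in mouse lung: the response of lungs without Rgs4 (KO) to Aspergillus fumigatus (Af) minus the response of wild-type (WT) lungs. For each gene it was computed as (KO_Af minus KO_PBS) minus (WT_Af minus WT_PBS) on log2(CPM + 0.5), where CPM is the deposited depth-scaled read count. A positive value, written below as higher in KO, means that the KO response lay above the WT response, whether both lungs gained or lost the transcript. All 12 of 12 libraries of the series entered, and 16126 of 49585 genes reached 1 CPM in at least 3 libraries and were tested.

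Poly-A RNA of lung tissue was sequenced from Balb/cJ mice of 4 groups with 3 libraries each: WT with phosphate-buffered saline (WT_PBS, libraries 15, 16 and 17), WT with Af (WT_Af, 18, 19 and 20), Rgs4 knockout with saline (KO_PBS, 9, 10 and 11) and knockout with Af (KO_Af, 12, 13 and 14). The study examined the role of Rgs4 in asthma. Not given in the sources used here are the age of the mice, the route, dose and duration of exposure, how the Rgs4 allele was made and whether all cells lack it. Nothing says that the libraries of a group came from separate mice, so the p-values measure only the spread between these libraries.

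Rgs4 is a GTPase-activating protein: it speeds the switching-off of Gq and Gi proteins and so shortens signals from receptors for acetylcholine, histamine, endothelin and other mediators that contract airway smooth muscle. In allergic models, inhaled Aspergillus antigen drives type 2 inflammation, with eosinophils, alternatively activated macrophages, mucous cells that make mucins, and contraction of the airway on provocation. A difference of differences addresses whether loss of the gene alters this response, apart from any difference that the knockout lung already has without the mould. Such a contrast carries the noise of all 4 groups, so its standard error is larger than that of a comparison of 2 of them.

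Recovered totals ran from 20708884 to 30229446 reads a library. Rgs4 itself (ENSMUSG00000038530.11, chromosome 1, 169741477 to 169747642, minus strand, GRCm38) read 25.8, 20.7 and 22.3 CPM in WT_PBS and 48.8, 42.7 and 43.8 CPM in WT_Af. Its KO libraries read 1.1, 1 and 0.571 CPM with saline and 1.14, 1.47 and 0.848 CPM with Af. Every KO library thus matched its label, and the interaction of Rgs4 (log2 -0.71 ± 0.25 SE, limma adjusted p = 0.315) was not called. Several libraries stood apart in markers of other tissues or cells. The squamous keratin Krt13 read 240 CPM in WT_PBS 17 and 137 CPM in KO_Af 12, against at most 0.506 CPM elsewhere. Mean levels of skeletal muscle genes were 5.65 and 6.15 on the log2 scale in the same libraries. T cell genes averaged 5.12 in WT_Af 18 against 3.75 and 3.60 in the other WT_Af libraries, and B cell genes 2.69 in WT_PBS 15 against 4.37 and 4.20. For lists, and for many of the named genes, in which these libraries were extreme, values without them are given beside the result.

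Sult4a1 was the only gene whose interaction passed the test over all genes. Its level dropped with Af in WT lungs and rose with Af in KO lungs. It encodes a member of the sulfotransferase family that is found mainly in brain and has no established substrate (ENSMUSG00000018865.8, chromosome 15, 84076097 to 84105754, minus strand, GRCm38). The level was 4.06, 3.9 and 0.945 CPM in WT_PBS, and 0.384, 0.295 and 0.225 CPM in WT_Af. It was 0.249, 0.223 and 0.571 CPM in KO_PBS and 6.8, 5.42 and 3.43 CPM in KO_Af. The WT_PBS libraries all lay above the WT_Af libraries, and the KO_Af libraries all lay above the KO_PBS libraries, with no overlap within either genotype. In reads, these values were 98, 90 and 20 in WT_PBS, 8, 9 and 6 in WT_Af, 7, 6 and 13 in KO_PBS and 173, 118 and 89 in KO_Af. The WT response was log2 -1.94 (limma adjusted p = 0.00168), the KO response was log2 2.73 (adjusted p = 0.000129), and their difference was log2 4.68 ± 0.56 SE (adjusted p = 0.0465). On recovered reads, edgeR's quasi-likelihood test (adjusted p = 0.024) and DESeq2 (adjusted p = 1.08e-14) also called it. The call depended on single libraries: it held in 4 of the 12 fits that left out 1 library. It was lost without WT_PBS 15 or 16, any WT_Af or any KO_PBS library, with adjusted p up to 0.161 without KO_PBS 10. The log2 difference in the leave-one-out fits stayed between 4.39 and 5.22. Its size moved more with the scale used: log2 3.66 with a pseudocount of 1, 6.31 with 0.1, 6.97 by voom and 7.25 by DESeq2.

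Beyond Sult4a1, limma called no other gene, 1 of 16126 in all (0.0062%), and edgeR called 1 as well (0.0062%). DESeq2 called 362 of the 16107 genes to which it gave an adjusted p, 205 higher in KO (1.27%) and 157 lower (0.975%). At an unadjusted limma p under 0.05 there were 1750 genes (10.9%), of which 819 were higher in KO (5.08%) and 931 lower (5.77%). Without the TMM scaling of the deposited values this split was 3.31% higher against 8.18% lower, with the median of all genes at log2 -0.07. At a limma adjusted p under 0.10 there were 84 genes, 50 higher and 34 lower, and DESeq2 called all 84. Over all tested genes the median interaction was 0.00, with an interquartile range of -0.17 to 0.16. The genes described next therefore missed the limma threshold unless stated, and a miss does not show that their responses were alike.

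**Figure D1:**
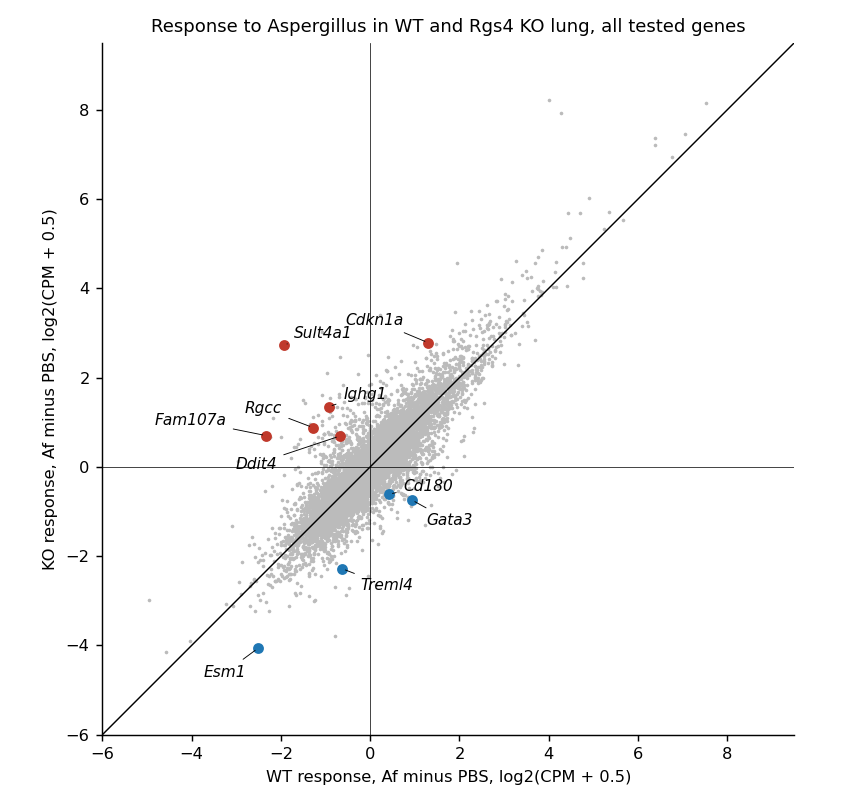
Response to Af (Af minus PBS, log2(CPM + 0.5)) in WT lungs on the horizontal axis against KO lungs on the vertical axis, 1 grey point for each of the 16126 tested genes; the diagonal marks equal responses, and named genes are red where the KO response lay above WT and blue where it lay below. Sult4a1 sits at -1.94 and 2.73, in the upper left region where the responses have opposite signs.

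The plot of both responses shows most genes near the diagonal. Both axes take their values from different libraries, so no library is shared between them. By limma, Af raised 26.2% of genes and lowered 25.6% in WT, and raised 28.7% and lowered 29.2% in KO. Of the 7087 genes called in both genotypes in the same direction, the KO response was larger in 4669 (65.9%). Their median absolute log2 response was 0.70 in WT and 0.79 in KO. Neither this share nor these medians were computed over all tested genes or with a library left out. They describe these libraries and do not test whether the KO response was larger.

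A difference of differences can arise from any of the 4 groups, and for these genes it lay more often in the saline lungs. KO against WT gave 1.9% of genes higher and 1.66% lower under PBS, but 0.0372% higher and 0.0496% lower under Af. Among the 1750 genes at an unadjusted p under 0.05, the absolute genotype difference was greater under PBS in 1223 (69.9%), against 51.5% of all tested genes. Of the 362 genes called by DESeq2, it was greater under PBS in 299 (82.6%). The KO_PBS libraries stood above all 9 others for 419 of the 1750 genes (23.9%, against 6.18% of all tested) and below all 9 for 359 (20.5%, against 5.4%). WT_PBS stood apart for 144 above (8.23%, against 6.03% of all tested) and 213 below (12.2%, against 7.26%). KO_Af did so for 171 above (9.77%, against 5.3%) and 178 below (10.2%, against 3.75%). WT_Af did so for 29 above (1.66%, against 0.819%) and 33 below (1.89%, against 0.967%). The same libraries enter the interaction and these counts, so they describe where the difference lies and do not test it. Across all tested genes, the 9 pairwise KO responses lay wholly above the 9 WT responses for 494 genes (3.06%) and wholly below for 554 (3.44%).

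Among the genes higher in KO with the smallest p, most had their lowest level in the KO saline lungs. Cdkn1a, which encodes the cyclin-dependent kinase inhibitor p21 (chromosome 17, 29090976 to 29100727, plus strand), read 160, 135 and 168 CPM in WT_PBS and 339, 402 and 398 CPM in WT_Af. In KO lungs Cdkn1a read 61.2, 58.5 and 59 CPM with saline and 339, 385 and 534 CPM with Af. All 3 KO_PBS libraries lay below the other 9, and the Af libraries of both genotypes overlapped. Cdkn1a rose in both genotypes, by log2 1.30 in WT and 2.78 in KO, a difference of 1.48 ± 0.21 SE (limma adjusted p = 0.0557; DESeq2 adjusted p = 9.07e-08).

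Hsp90aa1, the inducible cytosolic Hsp90 chaperone (chromosome 12, 110690605 to 110702728, minus strand), read 794, 806 and 1008 CPM in WT_PBS and 856, 925 and 725 CPM in WT_Af. KO_PBS libraries of Hsp90aa1 read 319, 330 and 308 CPM, and KO_Af libraries 678, 655 and 627 CPM. The WT groups overlapped each other, KO_PBS was lowest, and KO_Af lay between. The KO response was log2 1.03 (limma adjusted p = 2.4e-05), the WT response was -0.06, and the difference was 1.09 ± 0.17 SE (adjusted p = 0.059). Erlin1, an endoplasmic reticulum membrane protein that takes part in the breakdown of inositol trisphosphate receptors, ranged from 44.3 to 52.2 CPM over all WT and KO_Af libraries and read 30, 29.7 and 28 CPM in KO_PBS. Here a single group was low, and the difference was log2 0.76 ± 0.12 SE (adjusted p = 0.059).

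Qsox1, a sulfhydryl oxidase that forms disulfide bonds, read 122, 124 and 126 CPM in KO_PBS against 189, 195 and 180 CPM in WT_PBS. Under Af Qsox1 read 272, 258 and 367 CPM in KO and 246, 242 and 240 CPM in WT. KO libraries were thus the lowest with saline and the highest with Af, and the interaction was log2 0.88 ± 0.16 SE (limma adjusted p = 0.0852). Fst, which encodes the activin-binding protein follistatin, read 3.68, 4.99 and 5.34 CPM in WT_PBS and 18.1, 15.3 and 22.8 CPM in WT_Af. Its KO libraries read 3.41, 1.97 and 2.86 CPM with saline and 31.7, 32.8 and 41 CPM with Af. Fst rose in both genotypes, log2 1.89 in WT and 3.47 in KO, and again the KO groups were the outer ones (difference 1.58 ± 0.29 SE, adjusted p = 0.0852). Fkbp14, a prolyl isomerase of collagen folding, had an interaction of log2 1.43, and Olfml2b, an extracellular olfactomedin-like protein, of 0.86, both with KO_PBS lowest. P4ha1, a collagen prolyl hydroxylase, had an interaction of log2 0.70, Alas1, the rate-limiting enzyme of heme synthesis, of 0.86, and Pxdc1 of 1.10. For these 3 genes it was WT_PBS that stood above the other 9 libraries. Rgcc, a regulator of the cell cycle that was also called in opposite directions by Af, read 97, 85.5 and 93 CPM in WT_PBS, 45.5, 32.3 and 35.9 CPM in WT_Af, and 44.1, 38.8 and 35.4 CPM in KO_PBS. In KO_Af, 2 of 3 libraries were at the WT saline level and the other was not: Rgcc read 98.1, 41.3 and 93.8 CPM. DESeq2 called Rgcc (adjusted p = 2.2e-06), and limma did not (log2 2.15 ± 0.37 SE, adjusted p = 0.0831).

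**Figure D2:**
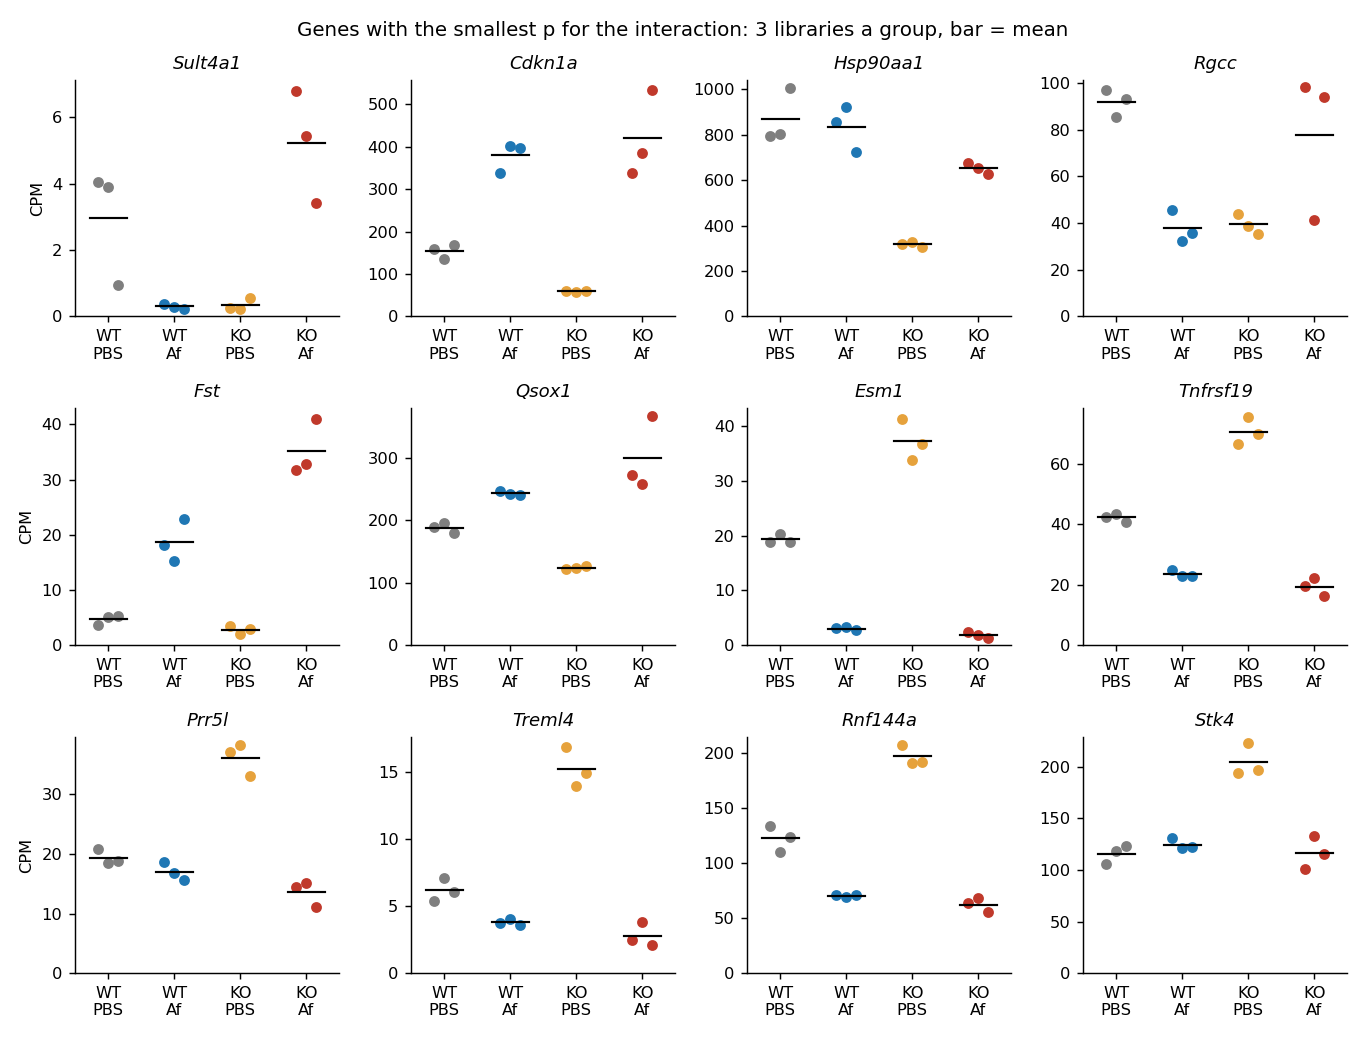
CPM in each library (points, linear axis from 0) and group mean (bars) of 12 genes with small p for the interaction, for WT and KO lungs with PBS or Af. In 10 of the 12 panels the 3 KO_PBS points lie above or below all other points, the exceptions being Sult4a1 and Rgcc. The 12 were picked from the named genes, and P4ha1, Alas1, Pxdc1 and Neurl3, in which WT_PBS stood apart, are not drawn. Among the 1750 genes at an unadjusted p under 0.05, KO_PBS stood above all others for 23.9% and below for 20.5%. Over all tested genes these shares were 6.18% and 5.4%.

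Among the genes lower in KO with the smallest p, all but Neurl3 had their highest level in the KO saline lungs. Esm1, a proteoglycan secreted by sprouting endothelial cells (chromosome 13, 113209659 to 113218098, plus strand), read 18.9, 20.3 and 18.8 CPM in WT_PBS and 3.07, 3.21 and 2.66 CPM in WT_Af. Esm1 in KO lungs read 41.3, 33.8 and 36.7 CPM with saline and 2.28, 1.75 and 1.35 CPM with Af. The 4 groups did not overlap at all: KO was highest with saline and lowest with Af. Esm1 fell in both genotypes, by log2 2.51 in WT and by log2 4.06 in KO, and the interaction was -1.54 ± 0.21 SE (limma adjusted p = 0.0557; DESeq2 adjusted p = 5.36e-08).

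Tnfrsf19, a receptor of the tumour necrosis factor family, read 42.5, 43.6 and 40.9 CPM in WT_PBS and 24.9, 23 and 22.9 CPM in WT_Af. The KO libraries of Tnfrsf19 read 66.6, 75.6 and 69.9 CPM with saline and 19.4, 22.1 and 16.3 CPM with Af. The order of groups was that of Esm1, and the interaction was log2 -1.02 ± 0.14 SE (limma adjusted p = 0.0557). Prr5l, which binds the kinase complex mTORC2, read 20.9, 18.5 and 18.8 CPM in WT_PBS, 18.6, 16.9 and 15.7 CPM in WT_Af, 37.1, 38.3 and 33.1 CPM in KO_PBS and 14.4, 15.2 and 11.1 CPM in KO_Af. Its WT groups overlapped (log2 -0.19, adjusted p = 0.222) while its KO level fell with Af (log2 -1.39, adjusted p = 3.54e-06), with an interaction of -1.21 ± 0.17 SE (adjusted p = 0.0557). Treml4, a receptor of myeloid cells, read 5.38, 7.12 and 6.05 CPM in WT_PBS, 3.74, 4.06 and 3.59 CPM in WT_Af, 16.9, 14 and 14.9 CPM in KO_PBS and 2.52, 3.81 and 2.08 CPM in KO_Af. The Af groups of Treml4 overlapped, KO_PBS was above all other libraries, and the interaction was log2 -1.65 ± 0.25 SE (adjusted p = 0.059).

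Stk4, the Hippo pathway kinase Mst1, read 194, 223 and 197 CPM in KO_PBS, while its other 9 libraries lay between 101 and 133 CPM. Meis1, a homeobox transcription factor, read 84.5, 82.3 and 81.1 CPM in KO_PBS and between 29.8 and 46.7 CPM in the others. Hlx, another homeobox factor, read 70.5, 61.3 and 77.5 CPM in KO_PBS and at most 43.6 CPM elsewhere. All 3 genes thus had 1 high group, and their interactions were log2 -0.93, -0.96 and -1.19. Spry1, an inhibitor of growth factor receptor signalling, had little spread: 95.2, 95.1 and 93.4 CPM in WT_PBS, 137, 134 and 137 CPM in KO_PBS, and 52.5 to 59 CPM over both Af groups. Its interaction of log2 -0.53 ± 0.09 SE (limma adjusted p = 0.0814) came with a gap between genotypes under PBS and overlap under Af. Rnf144a, a ubiquitin ligase, and Colgalt2, a collagen galactosyltransferase, had interactions of log2 -0.86 and -1.07, and Wscd1 of -0.96, with KO highest under PBS and lowest under Af for each. Neurl3, a ubiquitin ligase gene, differed from these: WT_PBS was the low group at 25.8, 24 and 21.1 CPM, against 42.5 to 69.7 CPM in the other 9 libraries. The panel of levels by library shows some of these orders side by side.

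Af was called in opposite directions in WT and KO for 19 genes, 4 up in WT and down in KO and 15 down in WT and up in KO. DESeq2 called the interaction of all 19, which their choice by opposite responses in the same libraries made likely. In limma, Sult4a1 aside, it was not called, with the largest adjusted p at 0.195. The 14 with gene names apart from variable segments and Rik models included Gata3, the transcription factor of type 2 lymphocytes. Gata3 read 4.8, 8.11 and 9.16 CPM in WT_PBS and 19.5, 11.6 and 12 CPM in WT_Af, and rose by log2 0.93 (limma adjusted p = 0.0141). In KO lungs it read 16.1, 14.6 and 16.1 CPM with saline and 6.84, 13.2 and 8.4 CPM with Af, and fell by log2 0.74 (adjusted p = 0.0348). The interaction of Gata3 was log2 -1.67, and it was -1.43 without WT_Af 18 and -1.41 without WT_PBS 15. KO_PBS lay above all WT_PBS libraries, and KO_Af overlapped WT_PBS and WT_Af.

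The other genes that went up in WT and down in KO were Cd180, a Toll-like receptor relative of B cells, Gpr174, a lysophosphatidylserine receptor of lymphocytes, and the C-type lectin Clec2i. All 3 had their highest libraries in KO_PBS: Cd180 read 17.2, 15.7 and 14.5 CPM there, against 6.54 to 12.9 CPM elsewhere. Without WT_PBS 15 the interactions of Cd180 and Gpr174, log2 -1.03 and -1.47, were -0.92 and -1.12. Bcl2l1, which encodes the survival protein Bcl-xL, went the other way. It read 191, 245 and 238 CPM in WT_PBS, 126, 127 and 162 CPM in WT_Af, 111, 97.1 and 91.1 CPM in KO_PBS and 141, 133 and 249 CPM in KO_Af. The Af groups overlapped, and KO_PBS was lowest, with responses of log2 -0.70 in WT and 0.75 in KO (limma adjusted p = 0.0153 and 0.00911). Ddit4, an inhibitor of mTORC1, had responses of log2 -0.68 and 0.69, with 63 CPM in WT_PBS 15 against 23.5 and 36.7 CPM in WT_PBS 16 and 17. Tinagl1, a matrix protein, had responses of -0.74 and 0.71, the small chaperone Hspb8 of -0.39 and 0.40, the ubiquitin ligase adaptor Klhl2 of -0.42 and 0.43, Slc35f5 of -0.26 and 0.30 and AA986860 of -0.62 and 0.58. Ighg1, the constant region of immunoglobulin G1, read 87.2, 103 and 55.8 CPM in WT_PBS, 28.8, 66.4 and 37.7 CPM in WT_Af, 8.6, 10.4 and 6.95 CPM in KO_PBS and 33.3, 13.3 and 25.8 CPM in KO_Af. KO_PBS was below every other library, and the interaction was log2 2.27 ± 0.51 SE (adjusted p = 0.124; DESeq2 adjusted p = 0.000812).

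**Figure D3:**
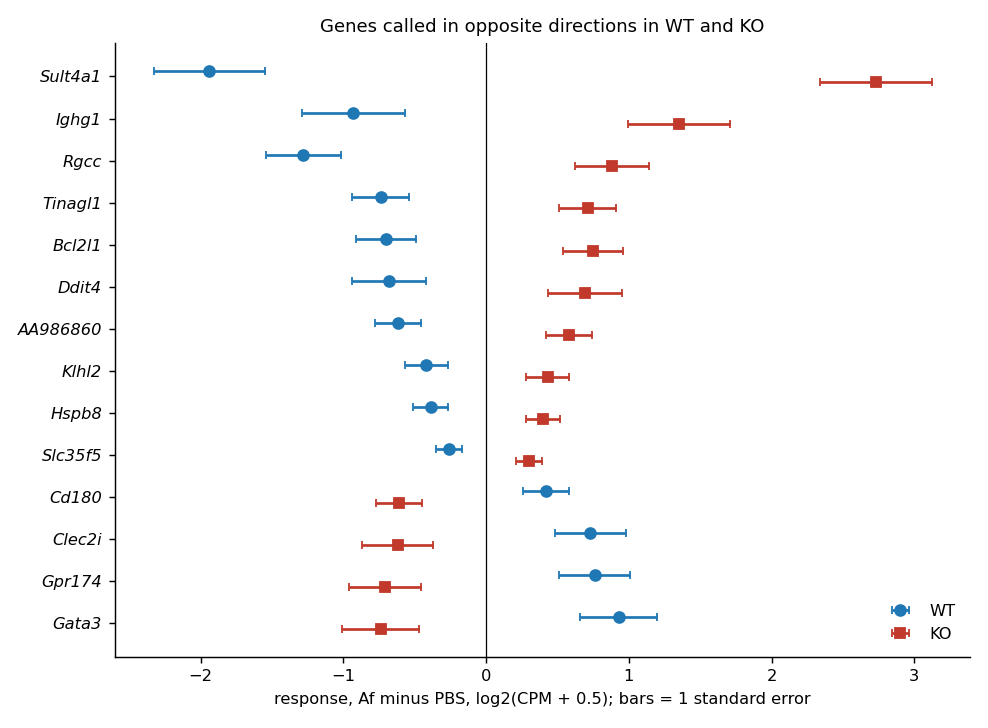
Response to Af (log2, horizontal axis) with 1 standard error for the 14 named genes called in opposite directions in WT (circles) and KO (squares) lungs. Sult4a1 has the greatest distance, from -1.94 to 2.73, and Slc35f5 the smallest, from -0.26 to 0.30.

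The plot of opposite responses, with Rgcc among them, holds 10 genes with WT below 0 and KO above it, and 4 the other way.

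Gene lists for pathways and cell types were then described by the count and median of their members, beside the same figures for all genes. Heat shock chaperones, which fold proteins under stress, were higher in KO as a group: the median interaction was log2 0.63, 26 of 26 members lay above 0, and 20 had an unadjusted p under 0.05 in that direction against 5.08% of all genes. DESeq2 called 12 of 26, against 1.27% of all genes higher in KO, and limma none. Mean list levels were 7.40, 7.37 and 7.74 in WT_PBS, 7.27, 7.37 and 7.14 in WT_Af, 6.22, 6.42 and 6.28 in KO_PBS and 6.71, 6.86 and 6.65 in KO_Af (log2). KO lay below WT under both exposures with no overlap, and the gap was wider under PBS. In the simple comparisons, 22 of 26 members were lower in KO under PBS (all genes 1.66%) and 2 under Af (all genes 0.0496%). With Af 8 fell and 4 rose in WT, where 25.6% of all genes fell and 26.2% rose, and 15 rose and 2 fell in KO, where 28.7% rose and 29.2% fell. The list median stayed between 0.48 and 0.70 when each library was left out.

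Hsph1, a Hsp110 nucleotide exchange factor, read 243, 187 and 288 CPM in WT_PBS, 177, 240 and 151 CPM in WT_Af, 30.3, 33.4 and 32.7 CPM in KO_PBS and 58, 77.9 and 62.5 CPM in KO_Af. Its KO libraries were all below its WT libraries, and the interaction was log2 1.37 ± 0.26 SE (limma adjusted p = 0.0893; DESeq2 adjusted p = 0.000196). Hspb1, the small chaperone Hsp25, read 124, 153 and 275 CPM in WT_PBS, 77.1, 86.7 and 69.6 CPM in WT_Af, 50.8, 55.4 and 54.1 CPM in KO_PBS and 81.3, 65.4 and 86 CPM in KO_Af. Here the Af groups overlapped, while WT_PBS was highest and KO_PBS lowest (interaction log2 1.68 ± 0.32 SE, adjusted p = 0.0893). Without WT_PBS 17, its highest library, the interaction of Hspb1 was log2 1.35. Heat shock factor 1 binds inverted repeats of the unit nGAAn. Pairs of such units, spelled GAANNTTC or TTCNNGAA, were searched on both strands in the 250 bases before the RefSeq start (GRCm38.p6), since both spellings read the same on the other strand. Of 26 chaperone genes 21 had a window, and 10 of these held a pair (47.6%), against 14.5% of 27025 genes in the table. The list was chosen as heat shock genes, so this share says nothing about the interaction. Hspa1a and Hspa1b were counted separately though their stretches are identical, as were Hspd1 and Hspe1, whose stretches overlap. The stretch of Hspb1 (chr5:135887775-135887854, plus strand) is shown because the gene is in the list's DESeq2 calls and no GENCODE exon overlaps it, and that of Hspa1b (chr17:34959300-34959379, minus strand) because the copy Hspa1a has the same 80 bases. The run in Hspe1, a mitochondrial chaperonin that shares a promoter with Hspd1, is shown as the longest. Capitals mark the pairs, and all are given 5′ to 3′ on the strand of the gene.
Hspb1: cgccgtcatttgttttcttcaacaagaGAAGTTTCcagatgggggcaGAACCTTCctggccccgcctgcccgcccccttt
Hspa1b: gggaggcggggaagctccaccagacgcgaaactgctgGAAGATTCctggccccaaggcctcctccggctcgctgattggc
Hspe1: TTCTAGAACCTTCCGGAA

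A match is a description of letters and not a measured site. Hspa1a, Hspa1b, Hspe1 and Hspd1 are named for these sequences, after their values were seen. Hspa1b read 267, 450 and 1077 CPM in WT_PBS, 260, 271 and 291 CPM in WT_Af, 24.1, 127 and 25.2 CPM in KO_PBS and 25, 123 and 44.3 CPM in KO_Af. Its KO libraries lay below all WT libraries, WT_PBS 17, KO_PBS 10 and KO_Af 13 were high within their groups, and the interaction (log2 1.15 ± 0.98 SE) was far from the threshold, as was that of Hspa1a (1.03 ± 1.02 SE), with which it can share reads. Without WT_PBS 17 the interactions of Hspa1b and Hspa1a were log2 0.61 and 0.45. Hspe1 had an interaction of log2 0.87 ± 0.30 SE and Hspd1 of 0.42 ± 0.18 SE, both with KO_PBS lowest.

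Glucocorticoid targets, genes induced by the stress hormone receptor, were also higher in KO: the median was log2 1.14, 14 of 23 had an unadjusted p under 0.05 in that direction (all genes 5.08%) and none in the other, and DESeq2 called 10 (all genes 1.27%). List levels were 6.26, 6.0 and 6.31 in WT_PBS, 5.73, 6.01 and 6.14 in WT_Af, 5.36, 5.46 and 5.45 in KO_PBS and 6.08, 6.08 and 7.09 in KO_Af. KO_Af 14 stood above every other library, and without it the median was 0.86 with 14 genes at that p. Fkbp5, a co-chaperone that restrains the receptor, read 157, 127 and 132 CPM in WT_PBS, 94.3, 70.6 and 96.6 CPM in WT_Af, 18.5, 14.4 and 13.5 CPM in KO_PBS and 47.6, 62.8 and 219 CPM in KO_Af. KO_PBS was below all other libraries, and KO_Af overlapped WT_Af. The interaction of Fkbp5 was log2 3.14 ± 0.59 SE (limma adjusted p = 0.0893), with a range of 2.48 to 4.18 over 25 alternative settings. Fam107a, an actin-binding stress gene, read 41.3, 31.7 and 34.8 CPM in WT_PBS and 5.54 to 7.63 CPM in all other libraries except KO_Af 14, at 29.4 CPM. Zbtb16, a zinc finger factor, read 222, 243 and 259 CPM in WT_PBS, 42.8, 53.8 and 63.2 CPM in WT_Af, 13.2, 21.8 and 19.7 CPM in KO_PBS and 11.2, 35.4 and 140 CPM in KO_Af. For both genes KO_Af 14 was the highest KO library. Without it the interactions of Fkbp5, Fam107a and Zbtb16, log2 3.14, 3.02 and 3.27 with all libraries, were 2.48, 2.37 and 2.35. Zbtb16 and Tsc22d3 are named after their values were seen. Tsc22d3, which encodes the glucocorticoid-induced leucine zipper, had an interaction of log2 1.26 ± 0.29 SE (adjusted p = 0.138). Cdkn1a and Ddit4, described above, are members of this list as well.

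**Figure D4:**
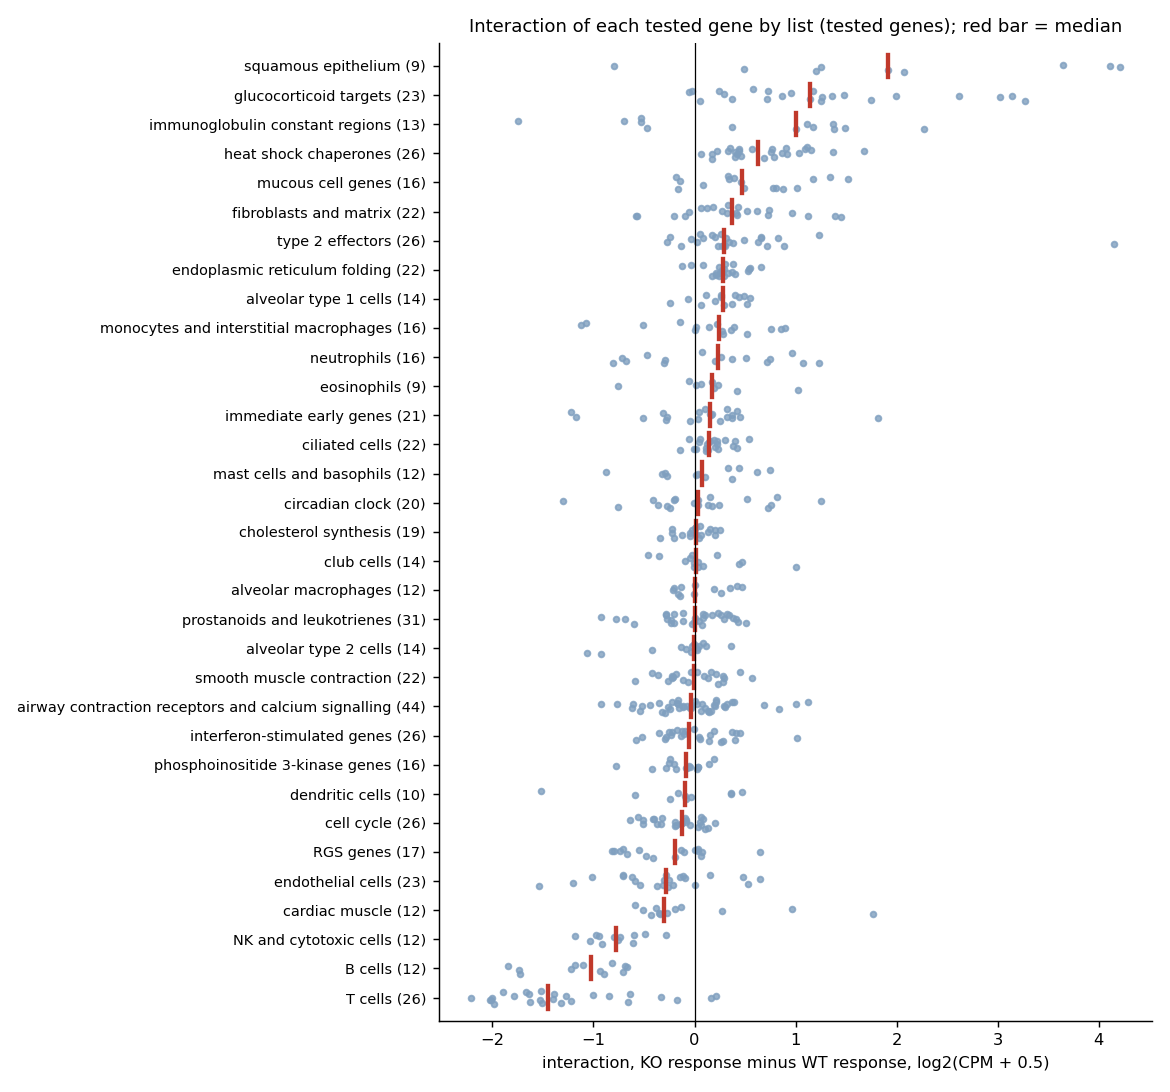
Interaction (KO response minus WT response, log2) of each tested gene (points) in the lists with at least 9 tested genes, with the median as a red bar and the number of tested genes in brackets. Glucocorticoid targets (1.14) and heat shock chaperones (0.63) lie to the right of 0 and T cells (-1.45), B cells (-1.02) and NK cells (-0.78) to the left, while smooth muscle genes (-0.01) lie around it.

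The plot of lists also has squamous epithelium at the far right, with a median of log2 1.91 over 9 genes. At an unadjusted p under 0.05, no gene of the list was higher (all genes 5.08%) and 1 was lower (5.77%). DESeq2 called 1 higher (all genes 1.27%). The list median was 0.87 without WT_PBS 17, 1.85 without KO_Af 12 and 0.35 without both, when 3 genes were higher and 1 lower at that p. The 5 tested skeletal muscle genes had a median of 2.89, which was 1.74 without WT_PBS 17, 1.21 without KO_Af 12 and 0.22 without both.

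T, B and NK cell genes went the other way. In bulk tissue, fewer cells of a type and less RNA per cell cannot be told apart. For T cells the median was log2 -1.45, 24 of 26 members lay below 0, and 17 had an unadjusted p under 0.05, against 5.77% of all genes lower in KO, while DESeq2 called 2 (all genes 0.975%). List levels were 2.39, 3.28 and 3.01 in WT_PBS, 5.12, 3.75 and 3.60 in WT_Af, 3.47, 3.74 and 3.65 in KO_PBS and 3.67, 3.75 and 3.39 in KO_Af. WT_PBS lay below all other groups, and the KO groups overlapped each other. With Af 19 of 26 T cell genes rose in WT (all genes 26.2%), and in KO 4 rose and 2 fell (all genes 28.7% and 29.2%). Without WT_Af 18, in which thymocyte genes averaged 4.78 against 2.84 and 2.70 in the other WT_Af libraries, the median was -0.85 with 13 genes at that p. Without WT_PBS 15 it was -1.19 with 8, and without KO_PBS 10, KO_PBS 11 or KO_Af 14 there were 9, 10 and 9. Lef1, a Wnt pathway factor of naive T cells, read 8.82, 16 and 14 CPM in WT_PBS, 31.2, 10.9 and 8.27 CPM in WT_Af, 21, 25.1 and 23.5 CPM in KO_PBS and 6.76, 6.99 and 6.32 CPM in KO_Af. KO_Af was the lowest group of Lef1, and its KO level fell (log2 -1.72, limma adjusted p = 0.00213). The interaction of Lef1 was log2 -1.89, and -1.34 without WT_Af 18. Cd6, a T cell adhesion receptor, rose in WT by log2 1.51 (adjusted p = 0.00772) and had a KO response of -0.13. Its interaction of -1.64 was -1.13 without WT_Af 18.

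B cell genes had a median of log2 -1.02 with 12 of 12 below 0, 6 at an unadjusted p under 0.05 (all genes 5.77%) and 1 DESeq2 call (all genes 0.975%). Their levels were 2.69, 4.37 and 4.20 in WT_PBS, 4.53, 4.72 and 4.34 in WT_Af, 4.93, 5.01 and 4.85 in KO_PBS and 4.73, 4.66 and 4.33 in KO_Af. WT_PBS 15 was the low library, and without it the median was -0.52 with 4 genes. The count was 3 without WT_Af 19, KO_PBS 10, KO_PBS 11 or KO_Af 14, 11 without WT_PBS 16, and 4 without KO_PBS 9. Fcer2a, the low-affinity receptor for immunoglobulin E, read 4.55, 18.4 and 12.8 CPM in WT_PBS, 39.6, 52.4 and 46.2 CPM in WT_Af, 31, 36.5 and 33.3 CPM in KO_PBS and 31.4, 46.3 and 43.8 CPM in KO_Af. It rose in WT (log2 2.10, limma adjusted p = 0.000598) but was already at 31 CPM or above in every KO_PBS library (interaction -1.85 ± 0.51 SE, adjusted p = 0.201; log2 -1.30 without WT_PBS 15). Cd22, an inhibitory receptor, had an interaction of log2 -0.71, and Pax5, the B cell identity factor, of -1.74; without WT_PBS 15 these were -0.57 and -1.04. Immunoglobulin constant region genes, of the same lineage, had the opposite sign: the median over 13 genes was 1.0, and 8 lay above 0 and 5 below. At an unadjusted p under 0.05, 1 was higher (all genes 5.08%) and 1 lower (5.77%). Their median was 0.49 without WT_PBS 17, and without WT_PBS 15 or WT_Af 18 there were 6 and 4 higher. NK and cytotoxic genes had a median of -0.78, 12 of 12 below 0 and 7 at an unadjusted p under 0.05 (all genes 5.77%). The count was 4 without WT_PBS 15 or WT_Af 20. Gzma, the protease granzyme A, read 6.33, 12.3 and 9.64 CPM in WT_PBS and 20.6 to 33.5 CPM in all other libraries. Klrk1, the activating receptor NKG2D, read 2.57, 3.25 and 2.65 CPM in WT_PBS and 3.73 to 6.24 CPM in the rest, and for both genes only WT_PBS stood apart. The kinase Txk had an interaction of log2 -1.03. Dendritic cell genes had a median of -0.09. DESeq2 called 2 of 10 lower (all genes 0.975%): Ccr7, a lymph node homing receptor (log2 -1.52, and -1.08 without WT_PBS 15), and Irf8, a lineage factor (log2 -0.59).

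**Figure D5:**
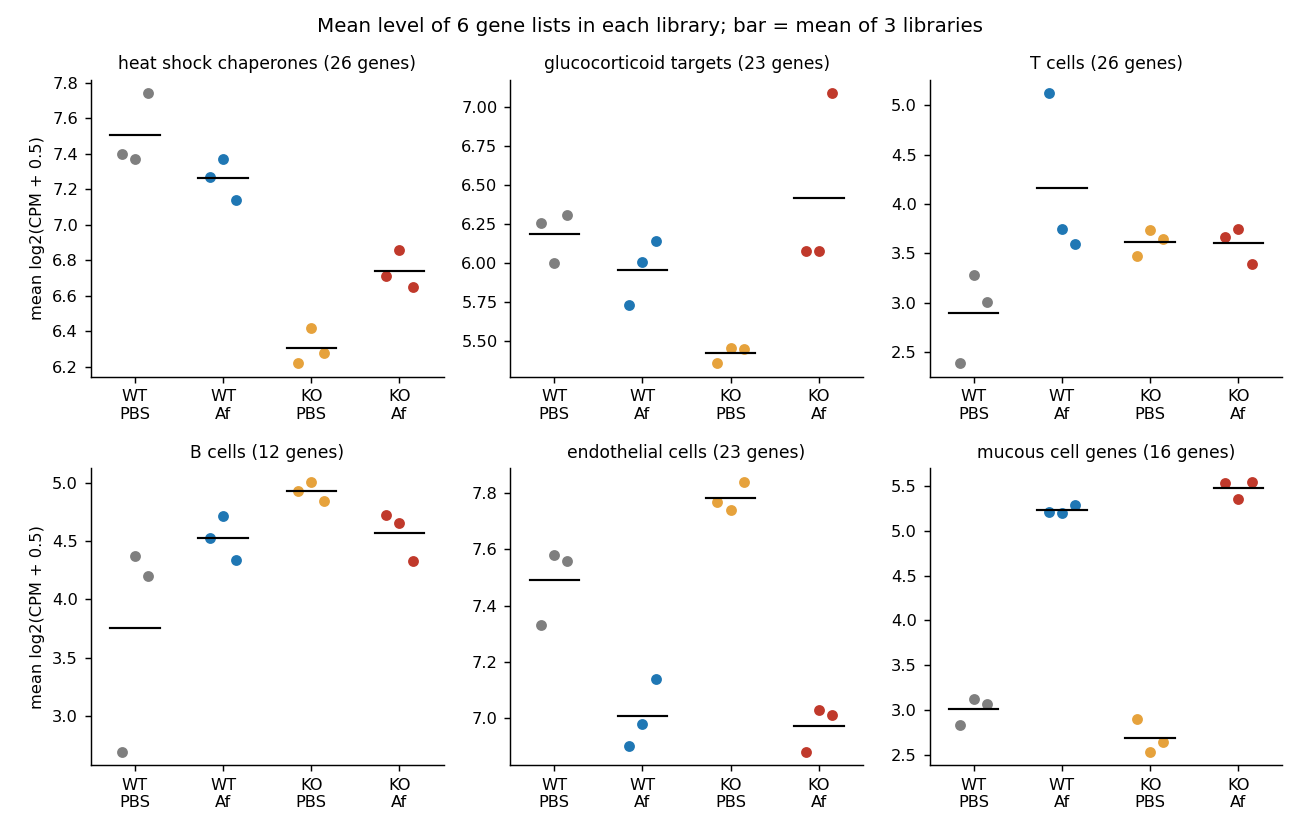
Mean log2(CPM + 0.5) of the tested genes of 6 lists in each library (points; axes do not start at 0), with the mean of each group as a bar. KO_PBS lies lowest for heat shock chaperones (6.22 to 6.42) and glucocorticoid targets (5.36 to 5.46) and highest for B cell and endothelial genes, and single libraries stand out in T cells (WT_Af 18), B cells (WT_PBS 15) and glucocorticoid targets (KO_Af 14).

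Endothelial genes had a median of log2 -0.28, with 8 of 23 lower (all genes 5.77%) and 2 higher (5.08%) in KO at an unadjusted p under 0.05, and 2 DESeq2 calls, both lower (0.975%). The plot of list levels has KO_PBS at 7.77, 7.74 and 7.84, above WT_PBS at 7.33, 7.58 and 7.56, while WT_Af (6.90 to 7.14) and KO_Af (6.88 to 7.03) overlapped. For 10 of 23 endothelial genes the KO_PBS libraries lay above all others, against 6.18% of tested genes. Tek, the angiopoietin receptor, read 395, 442 and 458 CPM in WT_PBS, 213, 204 and 224 CPM in WT_Af, 592, 613 and 608 CPM in KO_PBS and 165, 221 and 169 CPM in KO_Af. Tek fell in both genotypes, and its interaction was log2 -0.71 ± 0.16 SE (limma adjusted p = 0.118; DESeq2 adjusted p = 0.00283). Aplnr, the apelin receptor, had an interaction of log2 -1.20 ± 0.37 SE, with KO_Af between 26.4 and 70.2 CPM. Without WT_PBS 15, WT_Af 20 or KO_PBS 11, 5 endothelial genes were lower at that p, and the higher ones were 1, 1 and 2. Monocyte and macrophage genes were split, with 3 of 16 higher (all genes 5.08%) and 3 lower (5.77%) at an unadjusted p under 0.05. The list median was log2 0.24, with 12 above 0 and 4 below. DESeq2 called 2 of the 16 higher (all genes 1.27%) and 1 lower (0.975%). The complement genes C1qa and C1qb had interactions of log2 0.86 and 0.90, both called by DESeq2 (adjusted p = 0.0447 and 0.0216). Ms4a4c, which encodes a membrane protein, had -1.07, with 2.57, 4.3 and 3.16 CPM in WT_PBS against 8.01 CPM or more in every other library.

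Mucous cell genes rose with Af in both genotypes (14 of 16 in WT and 16 of 16 in KO, against 26.2% and 28.7% of all genes), and their median interaction was log2 0.47, with 5 higher (all genes 5.08%) and none lower at an unadjusted p under 0.05. Muc5b, a secreted mucin of the airway (chromosome 7, 141839070 to 141873084, plus strand), read 87.8, 104 and 105 CPM in WT_PBS, 105, 136 and 176 CPM in WT_Af, 49.6, 53.4 and 38.8 CPM in KO_PBS and 147, 192 and 229 CPM in KO_Af. KO_PBS was lowest, KO_Af overlapped WT_Af, and Muc5b rose in KO (log2 1.98, limma adjusted p = 9.38e-06) with a WT response of 0.47 (adjusted p = 0.0683). The difference was log2 1.52 ± 0.28 SE (adjusted p = 0.0893; DESeq2 adjusted p = 0.00013). Spdef, the regulator of goblet cell fate, read 2.86, 2.47 and 3.59 CPM in WT_PBS and 1.63, 1.52 and 1.67 CPM in KO_PBS, and 5.35 to 7 CPM over both Af groups (interaction 0.78, DESeq2 adjusted p = 0.0465). Agr2, a disulfide isomerase needed for mucin folding, read 38.5, 42.9 and 38.9 CPM in WT_Af and 134, 50.4 and 72.3 CPM in KO_Af, and its saline groups overlapped (interaction 1.34 ± 0.44 SE, adjusted p = 0.274; log2 0.96 without KO_Af 12). Without WT_PBS 15 or KO_PBS 9 the count of mucous genes at that p was 8, and without WT_PBS 16 it was 3.

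Of the type 2 effectors 23 of 26 rose with Af in WT (all genes 26.2%) and 24 in KO (28.7%), with median responses of log2 3.21 and 3.15. Mean list levels were 6.0, 6.05 and 6.17 in WT_Af and 6.30, 6.39 and 6.34 in KO_Af, and 2.48 to 3.21 over both saline groups. The KO libraries thus had the higher list mean under Af. However, limma called none of the 26 for KO against WT under Af (all genes 0.0372% higher and 0.0496% lower). The median genotype difference under Af was log2 0.20, and KO_Af lay above all other libraries for 4 of 26 (all genes 5.3%). The median interaction of the list was 0.29, 22 of 26 lay above 0, 3 were higher at an unadjusted p under 0.05 (all genes 5.08%) and DESeq2 called none. Without WT_PBS 15 the 3 became 8, and without WT_PBS 17 they became 6. Ccl17, a chemokine for Th2 cells, read 11, 12.7 and 12.7 CPM in WT_Af and 23.2, 16.4 and 27.3 CPM in KO_Af, and its saline groups overlapped between 1.41 and 4.72 CPM. Retnlb, a goblet cell product, read 3.65, 4.75 and 7.68 CPM in WT_Af and 10.1, 8.92 and 9.68 CPM in KO_Af, against at most 0.0472 CPM with saline. In both genes KO_Af lay above WT_Af without overlap, with interactions of log2 1.23 ± 0.39 SE (limma adjusted p = 0.255) and 0.89 ± 0.30 SE (adjusted p = 0.298). Il33, the epithelial alarmin, differed instead with saline: 93.9, 90.2 and 76.1 CPM in WT_PBS against 57.4, 58.9 and 56.8 CPM in KO_PBS, and overlap under Af.

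Folding and secretory genes of the endoplasmic reticulum had a median of log2 0.28, with 8 of 22 higher (all genes 5.08%) and none lower at an unadjusted p under 0.05. KO_PBS lay below all others for 15 of the 22, against 5.4% of tested genes. Xbp1, the transcription factor of the unfolded protein response, read 248, 212 and 244 CPM in WT_PBS, 285, 315 and 313 CPM in WT_Af, 187, 182 and 182 CPM in KO_PBS and 352, 370 and 329 CPM in KO_Af. The KO groups of Xbp1 were the outer ones, and the interaction was log2 0.55 ± 0.12 SE (limma adjusted p = 0.109; DESeq2 adjusted p = 0.000221). Pdia6, a disulfide isomerase, and Manf, a secreted stress protein, had interactions of log2 0.37 and 0.66. By quantile normalization 3 of the 22 were at that p. In the fibroblast list, with a median of 0.37, Lox, which cross-links collagen, read 178 CPM in WT_PBS 15 and 90.8 and 84.9 CPM in WT_PBS 16 and 17, against 57.1, 63.2 and 46.8 CPM in KO_PBS. The list median was 0.02 without WT_PBS 15, and the interaction of Lox, log2 1.45, was 1.11 without it. Loxl2 and Fap, also matrix genes, had interactions of log2 0.73 and 0.74, and that of Loxl2 was 0.46 without WT_PBS 15.

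Airway contraction, the trait in which Rgs4 is known to act, was covered by lists of receptors, prostanoids, RGS genes, phosphoinositide 3-kinases and contractile proteins. Receptors and calcium signalling genes had a median of log2 -0.03, 3 of 44 higher (all genes 5.08%) and 3 lower (5.77%) at an unadjusted p under 0.05. Without KO_Af 12 these were 6 and 2, and without KO_Af 13 they were 2 and 7. Lpar1, a lysophosphatidic acid receptor, read 49.9, 41 and 38 CPM in WT_PBS, 38.6, 53.9 and 52.8 CPM in WT_Af, 23.8, 24.4 and 23.8 CPM in KO_PBS and 49.4, 46.6 and 69.5 CPM in KO_Af. KO_PBS alone was low, and the interaction was log2 1.0 ± 0.23 SE (limma adjusted p = 0.147; DESeq2 adjusted p = 0.00717). Tbxa2r, the thromboxane receptor that contracts airway muscle, read 11.4, 11.4 and 12.3 CPM in KO_PBS and 5.86, 5.65 and 3.89 CPM in KO_Af, with its WT groups overlapping between 5.54 and 9.69 CPM. Adrb1, a beta-adrenergic receptor, had an interaction of log2 -0.61 ± 0.19 SE, and neither receptor was called by DESeq2 (adjusted p = 0.0647 and 0.119).

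Prostanoid and leukotriene genes had a median of log2 0.00, with 2 of 31 higher (all genes 5.08%) and 4 lower (5.77%) at an unadjusted p under 0.05. Without WT_Af 20 or KO_Af 12 the higher ones were 5 and 4. Ptgir, the receptor of the relaxing lipid prostacyclin, read 7.08, 6.9 and 6.9 CPM in WT_PBS, 21.6, 23.5 and 20.5 CPM in WT_Af, 10.6, 9.59 and 9.36 CPM in KO_PBS and 16.8, 23 and 16.8 CPM in KO_Af. Ptgir rose in both genotypes, log2 1.58 in WT and 0.89 in KO, WT_PBS was below all other libraries, and the difference was -0.69 ± 0.17 SE (limma adjusted p = 0.162; DESeq2 adjusted p = 0.0295). Cysltr2, a leukotriene receptor, read 0.538, 0.824 and 0.756 CPM in WT_PBS and 1.06 to 1.58 CPM in the other groups, with an interaction of log2 -0.78.

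RGS genes had a median of log2 -0.19, with 5 of 17 lower (all genes 5.77%), Rgs4 among them, and none higher at an unadjusted p under 0.05. Rgs3, a further GTPase-activating protein for Gq and Gi, read 88.6, 99.4 and 93.9 CPM in WT_PBS, 91, 87.7 and 75.1 CPM in WT_Af, 136, 142 and 131 CPM in KO_PBS and 68.3, 80 and 62.4 CPM in KO_Af. KO_PBS was above all others and the Af groups overlapped: Rgs3 fell in KO (log2 -0.96, limma adjusted p = 1.44e-05), its WT response was -0.15 (adjusted p = 0.225), and the difference was -0.80 ± 0.14 SE (adjusted p = 0.0852; DESeq2 adjusted p = 0.000138). Rgs14, which acts on Gi, read 7.57, 9.68 and 11.3 CPM in WT_PBS and 12.4 to 20.5 CPM elsewhere, and its interaction was log2 -0.82. Without WT_PBS 15, WT_PBS 16, WT_Af 20 or KO_Af 13 the count of lower RGS genes was 3, and the median was -0.33 without WT_PBS 17 and -0.45 without KO_Af 12. Among phosphoinositide 3-kinase genes 1 of 16 was lower (all genes 5.77%) and none higher (5.08%) at that p. There were 2 lower without WT_PBS 15, KO_PBS 11 or KO_Af 13 and 2 higher without KO_Af 12. The 1 was Pik3cd, the leukocyte catalytic subunit, with 34.3, 52 and 45.9 CPM in WT_PBS, below its other 9 libraries, and an interaction of log2 -0.78 ± 0.23 SE (adjusted p = 0.214). Contractile genes had a median of -0.01. At an unadjusted p under 0.05, 1 of 22 was higher (Tagln, an actin-binding protein, log2 0.57), against 5.08% of all genes. Another 1 was lower (Itga8, an integrin, -0.59), against 5.77%. Leaving out each library in turn gave 0 to 3 higher (3 without WT_Af 19) and 1 to 3 lower (3 without KO_Af 13).

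Further lists lay near the median of all genes. All 26 cell cycle genes rose with Af in both genotypes, against 26.2% of all genes in WT and 28.7% in KO. Their median interaction was log2 -0.12, with 5 of 26 lower (all genes 5.77%) and none higher (5.08%) at an unadjusted p under 0.05. Among the 5 were the replication helicase genes Mcm2, Mcm5 and Mcm3 (-0.64, -0.51 and -0.56), each with WT_PBS lowest. Leaving out 1 library moved the median between -0.01 (KO_PBS 11) and -0.25 (KO_PBS 10), and 3 genes were lower without WT_PBS 17, WT_Af 18, KO_PBS 11 or KO_Af 12. Ciliated cell genes had a median of 0.14. Their master regulator Foxj1 read 112, 116 and 123 CPM in WT_PBS, against 73.3 to 93.4 CPM in the other 9 libraries, with an interaction of 0.54 ± 0.10 SE (limma adjusted p = 0.0893; DESeq2 adjusted p = 0.000385). Clock genes were split, 4 higher (all genes 5.08%) and 4 lower (5.77%) of 20 at an unadjusted p under 0.05. Leaving out each library in turn gave 1 (without WT_Af 18) to 6 (without KO_Af 12) higher and 2 or 3 lower. The output factor Dbp read 67, 66.1 and 79.8 CPM in KO_PBS and 7.75, 6.66 and 9.06 CPM in KO_Af, the highest and lowest groups, and had an interaction of log2 -1.30 ± 0.32 SE (adjusted p = 0.147; DESeq2 adjusted p = 0.0155). Cry1, a repressor of the clock, and Nr1d1, a nuclear receptor of its second loop, had 0.76 and -0.76. The time of day of collection is not stated, and its part in these values was not tested. Atf3, an immediate early factor, had 1.82 ± 0.46 SE with KO_PBS lowest. Its list had a median of 0.15, with 1 of 21 higher (all genes 5.08%) and 2 lower (5.77%) at an unadjusted p under 0.05. Without WT_PBS 17 the value of Atf3 was 1.30 and the list median -0.26. Kit, a mast cell and stem cell receptor, had -0.88 with KO_PBS highest. The mast cell and basophil list had a median of 0.07, with 8 of 12 above 0. At that p, 1 of the 12 was lower (all genes 5.77%) and none higher (5.08%). Scgb3a1, a secretoglobin of club cells, had 1.0 ± 0.41 SE, and the club cell list had a median of 0.01. Eosinophil, neutrophil, alveolar macrophage, interferon-stimulated, cholesterol synthesis and alveolar type 2 lists had medians of 0.17, 0.23, 0.00, -0.05, 0.01 and -0.01.

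Of the 94 genes named here with a value for the interaction, all 94 kept its sign in each alternative setting in which they were tested. Most were named for a small p in these libraries, and the settings use the same libraries again. A kept sign was therefore likely beforehand and is no separate test. Sizes moved more, as for Hspa1a, from log2 0.39 to 1.77. Each group is a run of consecutive library numbers (KO_PBS 9 to 11, KO_Af 12 to 14, WT_PBS 15 to 17, WT_Af 18 to 20), so an effect that goes with library number cannot be told apart from the groups, in the interaction as in the simple comparisons.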

How the data were processed

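Poly-A RNA of mouse lung was extracted with a Qiagen kit and made into libraries with an Illumina TruSeq kit, per the labels' protocols. Per the submitters' processing notes, the authors used STAR 2.7.6a, RSEM 1.3.0 and cutadapt 1.18. These notes list GRCm38 and GRCh38 with no role. The deposited table holds 1 signal per gene and library, CPM scaled by TMM as the authors named it. In every library 100% of values were whole multiples of 1 read (tolerance 0.01), so reads were recovered by division. No source used here says whether counting used strand. Overlapping, antisense and near-identical genes (Hspa1a and Hspa1b) are therefore uncertain. Of the gene identifiers 99.5% matched GENCODE M21 (GRCm38), which gave coordinates and replaced 26 symbols turned into dates.

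Genes that reached 1 CPM in 3 or more libraries were fitted with limma 3.58.1 in R 4.3.3 on log2(CPM + 0.5), which understates changes of low genes, with a mean-variance trend, 4 group means, 8 residual degrees of freedom and Benjamini-Hochberg adjustment at 0.05. Alternatives were edgeR 4.0.16, DESeq2 1.42.0 (19 empty adjusted p stayed empty) and voom on recovered reads, other pseudocounts, filters, scalings and weights, and leaving out libraries. The threshold of 0.10, the unadjusted counts and the list medians under alternatives were added after seeing the data. The contrast was run on simulated counts that had the same spread setting for every gene and no library that stood apart. That run checks the computation and not how the contrast behaves in these libraries. The members, lists (40) and tests were chosen with earlier results of these data known. Named were every limma call, the 12 smallest limma p in each direction, in each direction the 12 smallest edgeR p among genes that both edgeR and DESeq2 called, genes called in opposite directions in WT and KO, up to 3 genes a list, and Rgs4, without variable segments, Gm and Rik names. Sequences are from RefSeq (GRCm38.p6). Figures used matplotlib.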

Additional observations from a re-analysis of the deposited data

Results flagged for a closer look

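The interaction of Sult4a1 (log2 4.68 ± 0.56 SE, limma adjusted p = 0.0465) was taken up here because the responses of WT and KO lungs differed by a direct test of the difference. The WT response was log2 -1.94 and the KO response log2 2.73, with 3 libraries a group. Its levels are low, from 6 to 173 reads a library, and WT_PBS 17, at 20 reads against 98 and 90, lay nearest to the WT_Af libraries. Without WT_PBS 17 the difference was log2 5.22 (adjusted p = 0.000383). KO_Af libraries held 173, 118 and 89 reads. Skeletal muscle and squamous genes were high in WT_PBS 17 and KO_Af 12, and without both libraries the interaction was log2 5.02 (adjusted p = 0.00109).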

How the results depend on the processing

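The count of interaction calls, 1 in limma, was 2 with a pseudocount of 1 (with Esm1), 5 for CPM without TMM and 5 with robust eBayes, 7 with quantile normalization, 1602 with array weights, 362 by DESeq2 and 84 at an adjusted p under 0.10. It was 0 with no filter on low values, 0 with a filter at 5 CPM, where Sult4a1 is not tested, 0 without the trend and 0 by voom on recovered reads. When each library was left out it ran from 0 to 187, with 187 without KO_Af 13, 32 without KO_Af 12, 9 without KO_Af 14 and 0 in 7 of the 12 fits. The single call without KO_PBS 11 was Nxpe4, named after its value was seen, and not Sult4a1. Sult4a1 had adjusted p of 0.0938 with no filter, 0.0808 without the trend and 0.0556 by voom. It was called in 13 of 25 settings. Leaving out a library, KO against WT under PBS gave 131 to 1230 calls, and KO against WT under Af gave 3 to 110. The count of responses that do not overlap stayed within 1.5 times with other pseudocounts, without TMM and with a filter at 5 CPM. It was not repeated with a library left out. The median of the 3 tested thymocyte genes, log2 -1.45, was -0.40 without WT_Af 18. The cause of each change was not tested. No paired analysis was possible because each library number occurs in 1 group only.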
